A study of Schizosaccharomyces pombe with 24 samples.

Results

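The transcriptome of pho7Δ fission yeast after 48 h without phosphate was compared with that of the same strain during logarithmic growth, before starvation began. Schizosaccharomyces pombe lacking Pho7 (h- pho7Δ::natMX) was harvested at 48 h after transfer to ePMGT medium without phosphate and at 0 h in YES rich medium, at 30 °C, with 3 libraries in each group out of 24 libraries in the series. The other groups used as points of reference were pho7Δ after 4, 8, 12, 24 and 36 h in the same phosphate-free medium and wild-type cells (WT, h-) at 0 h in YES. All strains carried alleles of leu1, ura4, his3 and ade6 as markers according to the study's strain list. Poly(A)+ RNA was sequenced as paired reads, and the unit is the average normalized read count of a group of 3 libraries. Of 6987 annotated genes, 5701 averaged at least 100 in the higher of the 2 groups. These are called measured here, and the remaining 1286 were left aside.

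YES is a complex medium and ePMGT is a defined one that holds glutamate, a mix of amino acids, adenine and uracil. The lack of phosphate, the change of medium and the time in culture thus cannot be told apart in the ratio of 48 h to 0 h. The study did move WT cells from YES to ePMGT with phosphate, for at most 8 h. It reports only a few lower genes and no general decrease of ribosome and translation genes there. It reports more higher genes, with iron genes and other transporters as the main classes, and most of them also rose without phosphate. SPBPB2B2.06c and SPAC1039.02 rose there by smaller factors than without phosphate, and urg1 and urg2 rose as well. According to the study, the autophagy genes and other phosphate-mobilizing genes of its earlier work did not rise there. That control holds no pho7Δ cells and was not analysed here, and neither were starved WT cells. A lower average also cannot be told apart from a smaller share of cells with the transcript. The tables hold 1 average per group, so there is no SD and no test, and every difference below is a ratio of averages without a replicate check. A gene is called higher or lower when its averages differ by 2-fold or more. The averages of different genes are not corrected for length and are compared along each gene only.

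Pho7 is a zinc-binding transcription factor that fission yeast uses to express its phosphate acquisition genes, among them the acid phosphatase gene pho1, the phosphate transporter gene pho84 and the glycerophosphodiester transporter gene tgp1. These genes are also held back in phosphate-replete cells by transcription of long noncoding RNAs across their promoters. Starved cells scavenge phosphate from outside and from stores, and they cut back the making of ribosomes, which hold much of a cell's phosphate. After division, fission yeast daughters separate when glucanases digest the septum.

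Several promoters carry short motifs of known regulators. They are shown first for genes that were higher and genes that were lower. The rule that called the genes did not use sequence, but every gene shown holds a match. The sets thus do not show how common a match is. Sequences and positions are from RefSeq (build ASM294v3), read on the strand of the gene from 5′ to 3′. In the first set, capitals mark matches to the published Pho7 consensus, searched on both strands as TCGG or TCGC, then A or T, then NN and TTNAA. The sites of pho1 and tgp1 are ones to which Pho7 was shown to bind, according to the study's text, while those of pho842 and SPBPB2B2.06c are matches of letters only. The set holds only those phosphate acquisition genes that have a match in the promoter window searched. All of them were higher at 48 h in a strain without Pho7.
pho1 (SPBP4G3.02), chrII:4447309-4447372, plus strand: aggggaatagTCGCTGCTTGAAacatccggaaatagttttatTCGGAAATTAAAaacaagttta
tgp1 (SPBC1271.09), chrII:352582-352613, minus strand: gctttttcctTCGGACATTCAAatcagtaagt
pho842 (SPAC23D3.12), chrI:4362356-4362387, plus strand: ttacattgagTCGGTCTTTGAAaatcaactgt
SPBPB2B2.06c, chrII:4471240-4471271, minus strand: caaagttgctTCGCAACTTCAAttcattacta

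In the second set, capitals mark the HomolD box CAGTCACA or its reverse complement, an element of ribosomal protein promoters. The members rpl801 and rps2201 were lower at 48 h, and rpl1001 and rpl102 were not called.
rpl801 (SPAC1F7.13c), chrI:4251478-4251505, minus strand: tgaccgaaaaCAGTCACAttttacaaca
rps2201 (SPAC22A12.04c), chrI:1162697-1162724, minus strand: ttcgtagacaTGTGACTGctttttttga
rpl1001 (SPBC18E5.04), chrII:2081414-2081441, plus strand: cctcatcctgTGTGACTGttttttgggt
rpl102 (SPBC30D10.18c), chrII:3060482-3060509, plus strand: tatatagaaaCAGTCACAaagatagtag

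Over all measured genes, 1027 were higher at 48 h (18.0%) and 726 were lower (12.7%), while 69.3% differed by less than 2-fold. The median log2 ratio was -0.02, with quartiles at -0.64 and 0.68. The increases were the steeper of the changes. At 4-fold or more there were 373 higher and 74 lower genes, at 8-fold 156 and 13, and at 32-fold 38 and 1. Genes called higher took 21.2% of the summed averages at 48 h against 4.70% at 0 h, and genes called lower took 11.2% at 48 h against 26.4% at 0 h. Scaling both groups to equal totals would raise every log2 ratio by 0.13.

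**Figure D1:**
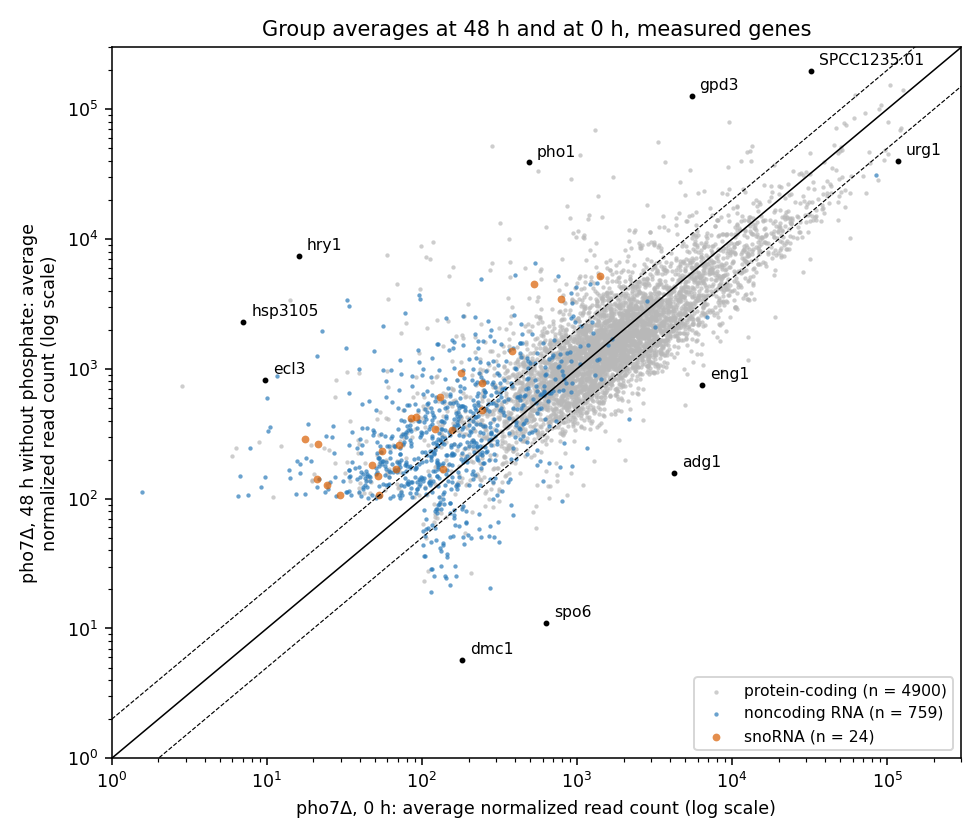
Average normalized read count of each measured gene in pho7Δ at 48 h without phosphate (vertical, log scale) against 0 h (horizontal, log scale), with values under 1 drawn at 1. The solid line marks equal averages and the dashed lines 2-fold, colours give the gene class, and noncoding RNAs and snoRNAs lie mostly above the solid line (median log2 ratios 1.04 and 1.91) whereas protein-coding genes are centred just below it (-0.12).

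The classes of genes differed. Among 4900 measured protein-coding genes, 610 were higher (12.4%) and 654 lower (13.3%), with a median log2 ratio of -0.12. Counts in the lists of protein-coding genes below are to be read against these shares. Among 759 measured noncoding RNA genes, out of 1514 annotated, 387 were higher (51.0%) and 71 lower (9.35%), with a median of 1.04. Small nucleolar RNAs, which guide modification and processing of ribosomal RNA, were higher in 22 of 24 measured cases and lower in 0. Their log2 ratios ran from 0.31 to 4.02. The U3 RNA gene snu3 averaged 288 at 48 h and 17.7 at 0 h, snoU14 averaged 4526 at 48 h and 527 at 0 h, and snR30 averaged 5183 at 48 h and 1401 at 0 h. These 3 were picked after their values were seen. The libraries were made from poly(A)+ RNA, so these averages count molecules that passed that selection. The study reports that the large ribosomal RNAs of pho7Δ cells became fragmented during starvation. Whether this bears on the averages was not tested. The 11 mitochondrially encoded genes were listed at 0 in both groups.

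The median ratios of the protein-coding genes called at 48 h were smaller at the earlier times, but single genes differed. Among the starved times, 305 of 610 higher genes had their highest average at 48 h, 121 at 24 h and 61 at 8 h. Of 654 lower genes, 352 had their lowest average at 48 h, 114 at 24 h and 68 at 8 h. The 610 higher protein-coding genes had median log2 ratios to the 0 h group of 0.62 at 4 h, 1.14 at 8 h, 1.33 at 12 h, 1.57 at 36 h and 1.59 at 48 h. The 654 lower ones had medians of -0.44, -0.84, -1.01, -1.26 and -1.29 at those times. All of these ratios share the 0 h group, and the genes were chosen for their ratio at 48 h, which favours a larger median at that time.

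The pho7 row averaged 334 at 48 h and 833 at 0 h in pho7Δ, against 3147 in WT at 0 h, so reads were still assigned to the deleted locus. Which part of the row these reads cover is not shown by the tables. Of the marker genes, ura4 was listed at 0 in all groups, while ade6 (log2 0.67) and leu1 (0.04) differed little between 48 h and 0 h. The his3 row averaged 621 at 48 h and 245 at 0 h. It lies opposite alg2 over 90.6% of its length, and alg2 averaged 3067 at 48 h and 1355 at 0 h. Whether reads were counted by strand is not stated in the sources at hand, and rows that overlap on opposite strands may share reads.

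Most phosphate acquisition genes were higher at 48 h in this strain without Pho7. Of 13 measured members, 11 were higher and 1 was lower, with a median log2 ratio of 1.96 against -0.12 over all protein-coding genes. The cell surface acid phosphatase gene pho1 (SPBP4G3.02) averaged 39014 at 48 h and 487 at 0 h, an 80.1-fold ratio, and WT at 0 h averaged 1701. The phosphate transporter gene pho84 (SPBC8E4.01c) averaged 69715 at 48 h and 1313 at 0 h. The glycerophosphodiester transporter gene tgp1 (SPBC1271.09) averaged 9931 at 48 h and 366 at 0 h. In all 3, the 48 h average of pho7Δ stood above that of replete WT, which was 3790 for pho84 and 992 for tgp1.

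The other plasma membrane phosphate transporter genes moved in different directions. The average of pho842 (SPAC23D3.12) was 2378 at 48 h and 125 at 0 h, below the 3002 of WT at 0 h. The pho841 gene averaged 33788 at 48 h and 5377 at 0 h. In contrast, pho843 averaged 912 at 48 h and 2612 at 0 h, a log2 ratio of -1.52, and was the 1 member called lower.

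Extracellular 5'-nucleotidases release phosphate from nucleotides outside the cell. SPBPB2B2.06c, 1 of the 3 in the list, averaged 739 at 48 h and 2.82 at 0 h, the third largest ratio of any protein-coding gene (log2 8.03). It stood higher in between, at 5048 after 12 h. SPAC1039.02 averaged 46685 at 48 h and 12501 at 0 h, after a high point of 191924 at 8 h. SPAC17G6.03 averaged 3240 at 48 h and 835 at 0 h, but lies wholly opposite cpp1 (1480 at 48 h and 1761 at 0 h). For the first 2 of these genes, the ratio of 48 h to 0 h thus gives a level that had come down again from an earlier maximum.

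Genes of the vacuolar polyphosphate store were higher by smaller factors. The polyphosphate synthesis gene vtc4 averaged 9337 at 48 h and 2512 at 0 h, and the vacuolar alkaline phosphatase gene pho8 averaged 6261 at 48 h and 2324 at 0 h. The GTPase regulator gene nrf1 averaged 8485 at 48 h and 3501 at 0 h. The vtc2 gene (10961 at 48 h and 5581 at 0 h, log2 0.97) was under the 2-fold limit.

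Inositol pyrophosphates, signalling molecules made by the kinase Asp1, act on phosphate genes through transcription termination. Of 8 genes of this signalling list, 2 were higher (25%, against 12.4% over all protein-coding genes). The 1 lower member was pho7 itself (12.5% against 13.3%). The asp1 gene averaged 4265 at 48 h and 1918 at 0 h, and the gene for the phosphatase Siw14 averaged 3884 at 48 h and 1566 at 0 h. Of 11 genes for termination factors that act at phosphate genes, 0 were higher and 1 was lower (9.09% against 13.3%). That was the protein phosphatase gene dis2 (3103 at 48 h and 8265 at 0 h).

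The study gives a list of genes, called Pho7-dependent, that starvation raised less in pho7Δ than in WT. It was drawn up on pho7Δ libraries of this series and starved WT cells of an earlier study. Of its 18 measured members, 14 were higher at 48 h and 0 were lower, and their median log2 ratio was 2.37. A list chosen in this way is not independent evidence of direction. The ecl genes, named for extending chronological lifespan when overexpressed, were all higher. The averages of ecl3 were 828 at 48 h and 9.73 at 0 h (log2 6.41), those of ecl1 were 9287 at 48 h and 1329 at 0 h, and those of ecl2 were 5202 at 48 h and 2203 at 0 h. In WT at 0 h, ecl3 averaged 4.51, ecl1 averaged 1207 and ecl2 averaged 3915, so ecl2 at 48 h stood less far above WT than above its own strain at 0 h. The transcription factor genes whose averages were far lower in pho7Δ than in WT at 0 h did not come back. The calcineurin-responsive factor gene prz1 averaged 5423 at 48 h and 5466 at 0 h, against 38711 in WT. The MADS-box gene mbx1 averaged 2299 at 48 h and 2979 at 0 h, against 14657 in WT. The atf31 gene, wholly opposite rdh54, averaged 23.03 at 48 h and 103 at 0 h, against 2483 in WT. The meiotic factor gene cuf2 was not measured.

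**Figure D2:**
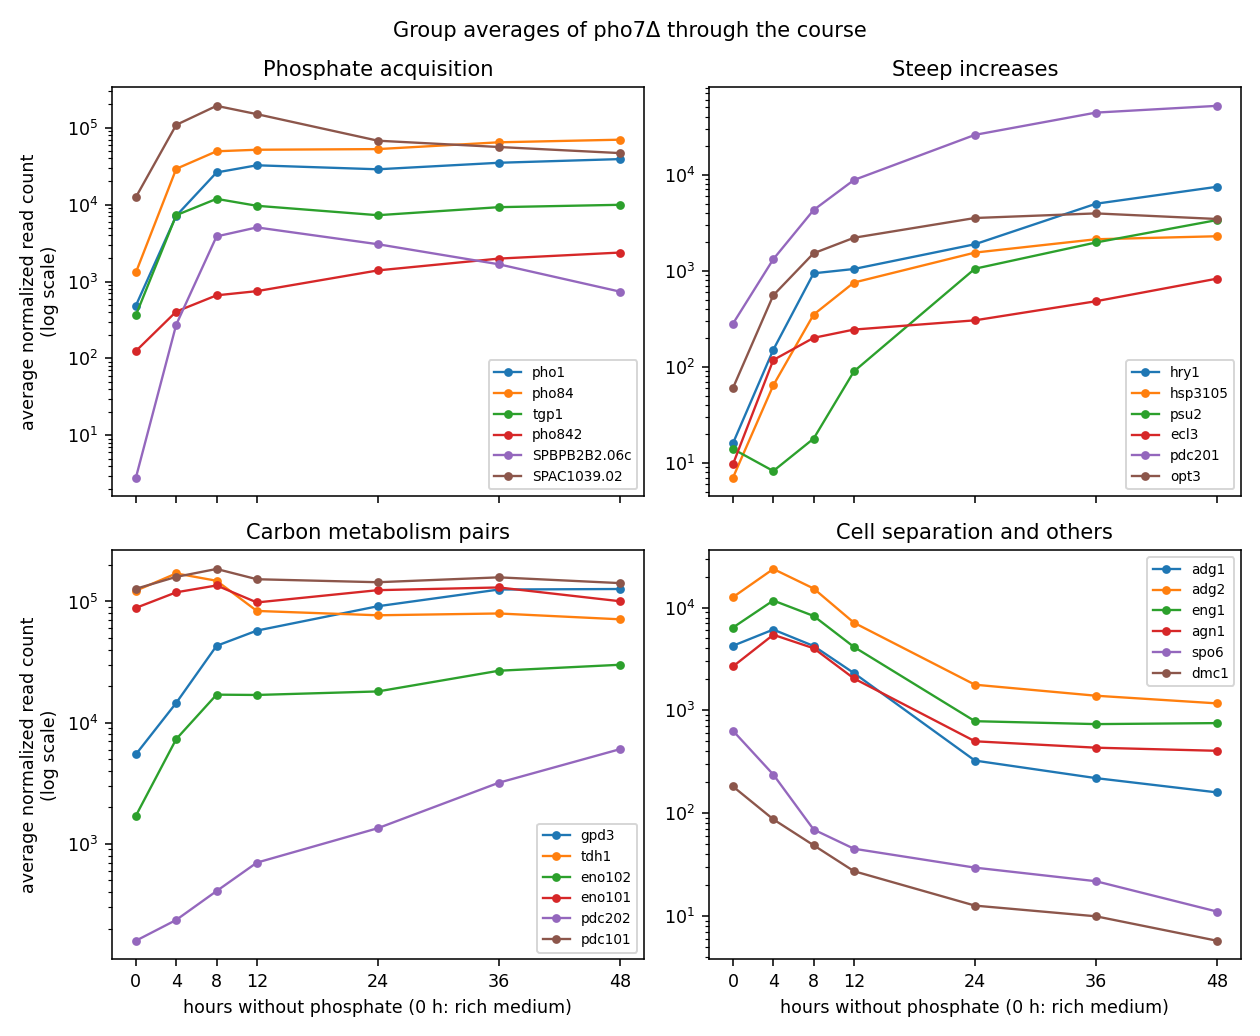
Group averages of pho7Δ (log scale) by hours without phosphate, with each point the deposited average of 3 libraries. pho1, pho84 and tgp1 stayed high from 8 h onwards while SPBPB2B2.06c peaked at 12 h, and adg2, eng1 and agn1 stood above their 0 h averages at 4 h and far below them from 24 h on.

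The sequences shown for pho1, tgp1, pho842 and SPBPB2B2.06c hold 2, 1, 1 and 1 matches to the Pho7 consensus. The other members of the list of 13 phosphate acquisition genes had no match in the windows searched. Among these were pho84, pho841, vtc4 and pho8, which were also higher at 48 h. The ecl genes had no match either. The pho1 stretch runs over bases 197 to 134 before the annotated gene start, and that of tgp1 over bases 202 to 171 before it. Over the windows from 250 bases before to 50 bases after the annotated gene start, any of its 4 forms occurred in 91 of 4897 measured protein-coding genes (1.86%). They occurred in 17 of 609 higher genes (2.79%), in 8 of 653 lower genes (1.23%) and in 6 of 81 genes that were 8-fold higher or more (7.41%). These are matches of letters on either strand, and these cells have no Pho7.

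The steepest increase belonged to hry1 (SPAC869.06c), which is annotated as a predicted HHE domain cation-binding protein. It averaged 7467 at 48 h and 16.1 at 0 h, and its course had not levelled off, with 16.1, 151, 941, 1043, 1887, 4977 and 7467 from 0 to 48 h. The ThiJ domain gene hsp3105 averaged 2285 at 48 h and 7.06 at 0 h, and the predicted beta-glucosidase gene psu2 averaged 3366 at 48 h and 14.0 at 0 h. psu2 was a late gene, still at 18.0 after 8 h and at 1050 after 24 h. The formaldehyde dehydrogenase gene fmd2 had begun to rise by 8 h, but most of its increase came after that. It averaged 33389 at 48 h and 565 at 0 h, stood at 1864 after 8 h, and averaged 6051 in WT at 0 h. The copper amine oxidase-like gene cao2 averaged 9559 at 48 h and 118 at 0 h.

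Proteins of the Con-6 family, conserved in fungi, were among the large increases. All 3 members, chosen as a list after their values were seen, were higher at 48 h. SPAC869.09 averaged 7571 at 48 h and 59.4 at 0 h, cum1 averaged 13217 at 48 h and 318 at 0 h, and SPAC11D3.01c averaged 29256 at 48 h and 917 at 0 h. The remaining large increases included SPBPB21E7.11 (8862 at 48 h and 98.7 at 0 h), which is annotated as specific to S. pombe. min8 averaged 4491 at 48 h and 68.6 at 0 h, opposite SPAC1B3.01c over 89.9% of its length (2070 at 48 h and 4242 at 0 h). SPAC9E9.02 averaged 7316 at 48 h and 106 at 0 h. The SPAC9E9.02 row is annotated as dubious.

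Some large ratios rest on very small averages at 0 h. Adding 10 to both averages lowered the log2 ratio of hsp3105 to 7.07, that of SPBPB2B2.06c to 5.87 and that of ecl3 to 5.41. The numbers of reads per library behind these averages were not analysed here.

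Several paralog pairs of glycolysis and fermentation differed in their change. Among 19 measured genes of this group, 6 were higher and 0 lower, and the group took 7.24% of the summed averages at 48 h against 4.60% at 0 h. Pyruvate decarboxylase opens the route to ethanol. Its gene pdc201 averaged 51873 at 48 h and 282 at 0 h, and pdc202 averaged 6041 at 48 h and 159 at 0 h, whereas pdc101 averaged 141709 at 48 h and 127251 at 0 h. The glyceraldehyde-3-phosphate dehydrogenase gene gpd3 averaged 126676 at 48 h and 5487 at 0 h, and its paralog tdh1 averaged 71249 at 48 h and 122702 at 0 h. For enolase, eno102 averaged 30039 at 48 h and 1709 at 0 h, and eno101 averaged 100447 at 48 h and 88508 at 0 h. In each of these sets, the paralogs tdh1, eno101 and pdc101 were not called while the others were higher.

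The gluconeogenic gene fbp1 averaged 18095 at 48 h and 867 at 0 h. Genes for use of dihydroxyacetone followed. dak1 averaged 80055 at 48 h and 9557 at 0 h, dak2 averaged 15442 at 48 h and 1191 at 0 h, and the glycerol dehydrogenase gene gld1 averaged 1916 at 48 h and 636 at 0 h. In contrast, the mitochondrial glycerol-3-phosphate dehydrogenase gene gut2 averaged 491 at 48 h and 1403 at 0 h, with an antisense row over its whole length that differed little (549 at 48 h and 543 at 0 h). None of 15 genes of the tricarboxylic acid cycle, 36 of the respiratory chain and ATP synthase, 15 of the vacuolar proton pump or 6 measured hexose transporters was called in either direction. Their median log2 ratios were 0.12, 0.30, 0.08 and -0.42.

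Many genes of autophagy, by which cells digest their own cytoplasm in the vacuole, were higher. Of 31 measured genes, 15 were higher (48.4%, against 12.4% over all protein-coding genes) and 0 lower, with a median log2 ratio of 0.99. The ubiquitin-like modifier gene atg12 averaged 827 at 48 h and 168 at 0 h, and the activating enzyme gene atg7 averaged 3436 at 48 h and 926 at 0 h. The gene for the initiating kinase, atg1, averaged 3078 at 48 h and 1387 at 0 h. The atg7 row overlaps mde4 on the opposite strand over 73.3% of its length. Proteasome genes differed little, with 2 of 46 higher, 2 lower and a median of -0.29. The 2 higher members were the predicted PI31-type regulator genes fub2 (4127 at 48 h and 97.4 at 0 h) and fub1 (2578 at 48 h and 377 at 0 h). In WT at 0 h, fub2 averaged 7594.

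The medians of the translation machinery lay below that of all protein-coding genes. Ribosomal proteins of the large subunit were lower in 17 of 83 cases (20.5%, against 13.3% over all protein-coding genes) and higher in 1. Their median log2 ratio was -0.72. Those of the small subunit were lower in 17 of 55 cases (30.9%) and higher in 0, with a median of -0.77. Their share of the summed averages was 5.35% at 48 h against 8.03% at 0 h for the large subunit, and 3.67% at 48 h against 5.91% at 0 h for the small subunit. The end state was not the lowest point. Medians for the large subunit were -1.17, -1.87, -1.11, -0.49, -0.62 and -0.72 through the 6 starved times in order, 4 h first, and those for the small subunit were -1.12, -1.82, -1.17, -0.56, -0.66 and -0.77. Both medians were lowest at 8 h and nearest to 0 at 24 h.

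Individual genes ranged widely. rpl801 averaged 13882 at 48 h and 37433 at 0 h, rps101 averaged 11413 at 48 h and 30902 at 0 h, and rpl402 averaged 19266 at 48 h and 48151 at 0 h. Paralogs differed, as rpl1002 averaged 3459 at 48 h and 12597 at 0 h whereas rpl1001 averaged 39561 at 48 h and 39286 at 0 h. Likewise rpl102 averaged 7993 at 48 h and 6022 at 0 h, while its paralog rpl101 had a log2 ratio of averages of -1.30. Reads of near-identical paralogs can be divided unevenly in counting, and an antisense row spans rpl1002 (536 at 48 h and 108 at 0 h), so these pairs are uncertain. The HomolD box was present in 54 of 83 large-subunit and 34 of 55 small-subunit promoter windows, against 2.80% of all measured protein-coding genes. The 88 ribosomal protein genes with the box had a median log2 ratio of -0.72 and the 50 without it of -0.76.

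Lower genes were also frequent in ribosome assembly. Of 126 ribosome biogenesis genes, 40 were lower and 2 higher, with a median log2 ratio of -0.73. Examples were urb2 (480 at 48 h and 1844 at 0 h) and the box C/D snoRNP gene nop58 (3677 at 48 h and 12208 at 0 h). RNA polymerase I, which transcribes the large ribosomal RNAs, had 6 of 15 genes lower and 0 higher. Its second-largest subunit gene rpa2 averaged 2519 at 48 h and 9687 at 0 h, and its largest subunit gene nuc1 averaged 2217 at 48 h and 8217 at 0 h. RNA polymerase III, which makes transfer RNAs and 5S RNA, had 3 of 18 genes higher (16.7%, against 12.4% over all protein-coding genes) and 1 lower (5.56% against 13.3%). The higher ones were the TFIIIB subunit genes brf1 (1851 at 48 h and 608 at 0 h) and bdp1 (1641 at 48 h and 713 at 0 h), and maf1 (1130 at 48 h and 511 at 0 h), which encodes the repressor of this polymerase. The brf1 row lies wholly opposite vrp1 (341 at 48 h and 1217 at 0 h).

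Translation factors had the lowest median of these groups, -1.07, with 23 of 44 lower and 1 higher. The eIF2 gamma subunit gene tif213 averaged 1640 at 48 h and 8382 at 0 h, and the eIF1A gene tif11 averaged 2260 at 48 h and 8677 at 0 h. The eIF1A-like gene tif1102 was the 1 higher member (2489 at 48 h and 578 at 0 h). Their median was -0.44 at 4 h, -0.85 at 8 h, -0.85 at 24 h and -1.07 at 48 h, so that it was lowest at 48 h where the ribosomal protein medians were not. Aminoacyl-tRNA synthetases were lower in 8 of 19 cases and higher in 0 (median -0.88), with nrs1 at 3004 at 48 h and 10453 at 0 h. Mitochondrial ribosomal proteins were lower in 10 of 74 cases and higher in 1 (median -0.41), a share of lower genes of 13.5% against 13.3% over all protein-coding genes.

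**Figure D3:**
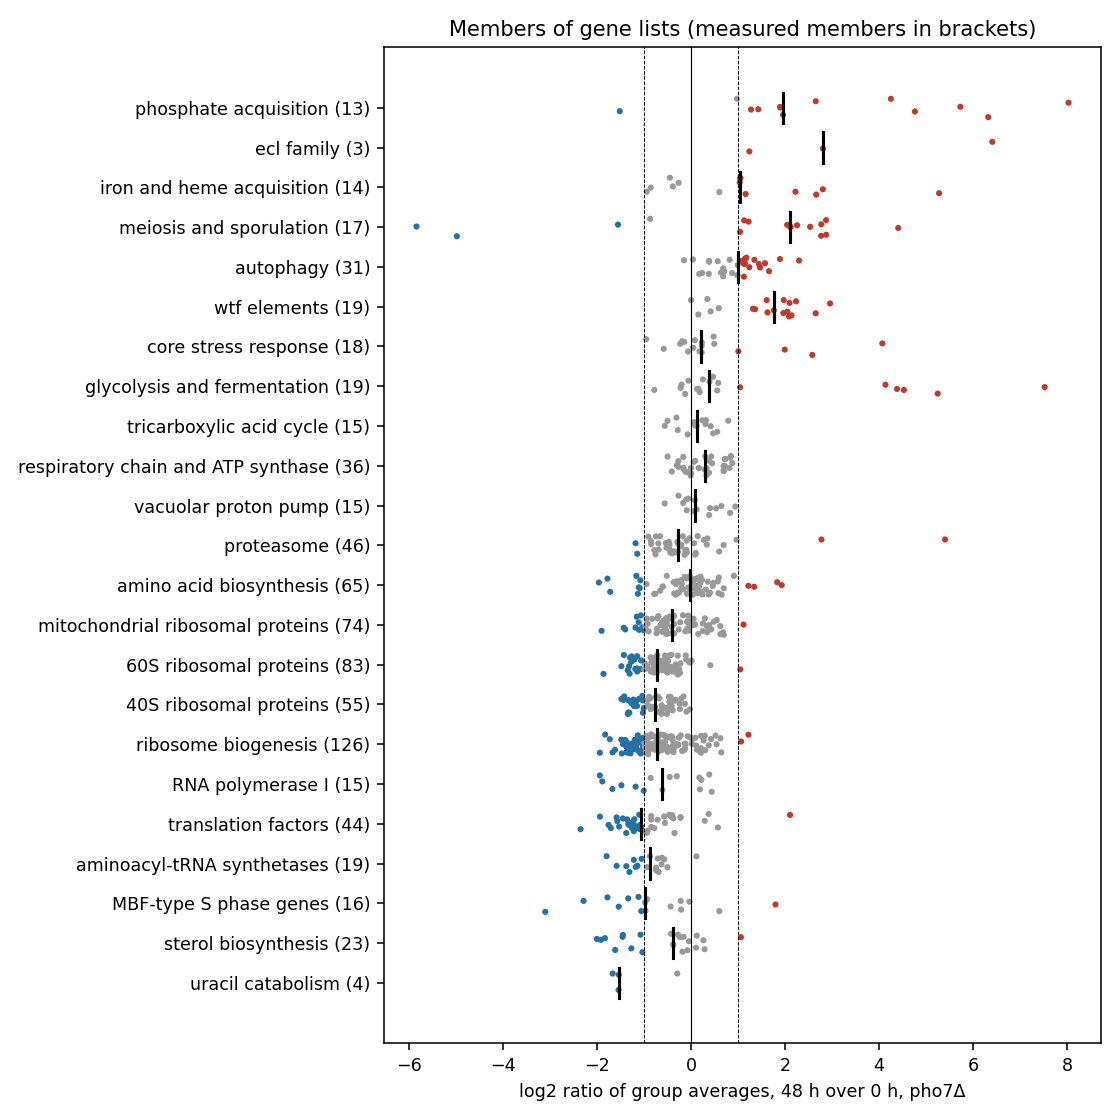
Log2 ratio of the group averages, 48 h over 0 h, for each measured member of the gene lists. The black bar is the median of a list and the dashed lines mark 2-fold; phosphate acquisition (median 1.96) and meiosis and sporulation (2.11) lie to the right, and translation factors (-1.07) and uracil catabolism (-1.54) to the left.

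Of 24 measured genes of mitosis and cell separation, 5 were lower (20.8%, against 13.3% over all protein-coding genes) and 0 higher, with a median log2 ratio of -0.59. The call of slp1, 1 of the 5, ends when both groups are scaled to equal totals (-0.93). Some genes of cell separation and the cell surface had large decreases. Endo-1,3-beta-glucanase from eng1 and endo-1,3-alpha-glucanase from agn1 digest the septum. The eng1 gene averaged 751 at 48 h and 6390 at 0 h, and agn1 averaged 404 at 48 h and 2674 at 0 h. The cell surface protein genes adg1 and adg2 averaged 159 and 1168 at 48 h, against 4248 and 12626 at 0 h. The predicted chitinase gene cts2 averaged 960 at 48 h and 8554 at 0 h.

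The decreases of eng1 and adg1 came after 8 h. The averages of eng1 were 6390, 11714, 8287, 4138, 784, 734 and 751 from 0 to 48 h, and those of adg1 were 4248, 6108, 4228, 2303, 324, 219 and 159.

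**Figure D4:**
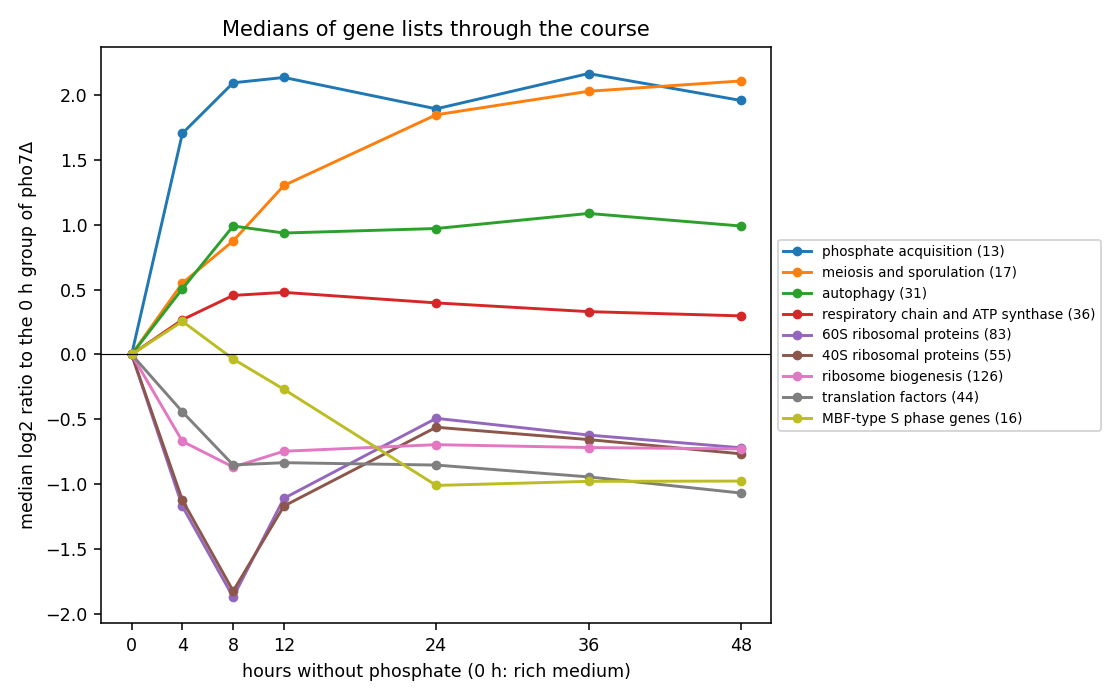
Median log2 ratio to the 0 h group of pho7Δ by hours without phosphate, for the gene lists in the legend with their number of measured members. Ribosomal proteins were lowest at 8 h (-1.87 and -1.82), and the median of MBF-type S phase genes was 0.25 at 4 h and -0.98 at 48 h.

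The MBF complex drives transcription at the onset of S phase, and of 16 genes of this type 7 were lower and 1 higher, with a median of -0.98. The kinase gene mik1, an inhibitor of mitotic entry, averaged 127 at 48 h and 1096 at 0 h. The replication licensing genes cdt1 and cdc18 averaged 151 and 437 at 48 h, against 740 and 1501 at 0 h. The 1 higher member was the MBF activator gene rep1, which averaged 299.6 at 48 h and 86.3 at 0 h. Core histone genes split, with 3 of 10 higher and 0 lower, as hht3 (40173 at 48 h and 11505 at 0 h) and hht2 (39707 at 48 h and 13204 at 0 h) were higher while hht1 (6699 at 48 h and 12442 at 0 h) was not called.

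Meiotic genes showed both the largest decreases and many increases. Of 17 measured genes of meiosis and sporulation, 13 were higher and 3 lower, with a median log2 ratio of 2.11. The recombination gene rec6 averaged 5800 at 48 h and 273 at 0 h. The gene for Rec12, which makes the breaks that start meiotic recombination, averaged 1143 at 48 h and 156 at 0 h, with an antisense row over its whole length at 255 at 48 h and 66.8 at 0 h. The meiotic cohesin gene rec8 averaged 411 at 48 h and 60.2 at 0 h, the meiotic cyclin gene crs1 averaged 285 at 48 h and 38.8 at 0 h, and mei4, the transcription factor gene of mid meiosis, averaged 654 at 48 h and 137 at 0 h. In contrast, spo6 averaged 11.0 at 48 h and 633 at 0 h, and dmc1 averaged 5.72 at 48 h and 181 at 0 h. The spo6 row lies wholly opposite lam2 (3872 at 48 h and 2652 at 0 h), and the dmc1 row lies wholly opposite its own antisense row (1512 at 48 h and 1052 at 0 h). The third lower member was spo15. The motif ACGCGT, the binding sequence of MBF, was present in 7 of 17 windows of this list and 6 of 16 windows of the MBF list, against 3.29% overall. The cells were of h- mating type. Of 19 measured M cell genes, 1 was higher (5.26%) and 2 were lower (10.5%), against 12.4% and 13.3% over all protein-coding genes. The higher one was the M-factor gene mfm1 (343 at 48 h and 90.6 at 0 h). The lower ones were mam4 (log2 -1.05) and ste6 (-1.11). With equal totals these 2 stood at -0.93 and -0.98 and were no longer called. Of the 2 measured P cell markers, map3 and map2, neither was called. The wtf genes, spore killers and their relatives, were higher in 14 of 19 measured cases and lower in 0 (median 1.76). This list was added after its values were seen, and its copies are alike enough that counting could divide their reads.

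Several iron and zinc uptake genes were higher. Of 14 measured iron and heme genes, 8 were higher and 0 lower, with a median log2 ratio of 1.04. The study reports that iron genes also rose in WT cells moved to ePMGT with phosphate. It attributes this to less iron in ePMGT than in YES. The heme uptake gene shu1 averaged 245 at 48 h and 6.31 at 0 h. The iron oxidase gene fio1 averaged 609 at 48 h and 87.2 at 0 h, and its permease partner gene fip1 averaged 1621 at 48 h and 256 at 0 h. The letters TGATAA, a form of the GATA element bound by the iron regulator Fep1, were in 9 of 14 windows, against 26.7% overall. Of 4 genes of zinc uptake and storage, a list added after its values were seen, 2 were higher and 0 lower. The zinc transporter gene zrt1 averaged 21292 at 48 h and 1365 at 0 h, and the metallothionein gene zym1 averaged 55670 at 48 h and 3316 at 0 h.

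Of 18 measured members of the core stress response list, 4 were higher (22.2%, against 12.4% over all protein-coding genes) and 0 lower, with a median of 0.20. The higher ones were zym1, srx1, ish1 and hsp16. The median of this list over the 0 h group was larger earlier, at 0.49 after 4 h and 1.07 after 8 h. It was 0.10 after 24 h. Relative to WT at 0 h, its median was 0.68 in pho7Δ at 0 h and 1.18 at 48 h. In the list of peroxide and metal detoxification, which shares zym1 and srx1, 7 of 22 genes were higher (31.8%) and 0 lower, with a median of 0.22. Among them were the mitochondrial superoxide dismutase gene sod2 (23300 at 48 h and 6589 at 0 h) and pap1, the transcription factor gene of the oxidative stress response (13785 at 48 h and 5040 at 0 h). The small heat shock protein gene hsp16 averaged 27582 at 48 h and 4619 at 0 h. Heat shock proteins and chaperones were lower in 8 of 19 cases and higher in 3, with the ER chaperone gene bip1 at 10319 at 48 h and 28470 at 0 h. The MAP kinase gene sty1, central to the stress response, averaged 2219 at 48 h and 5604 at 0 h. Its antisense row, over 82.0% of its length, averaged 6582 at 48 h and 538 at 0 h. Of 15 measured enzymes annotated as predicted for detoxification, 5 were higher and 1 was lower, with a median of 0.42, in a list that was likewise added. Besides hsp3105 they included the hydrolase gene hhy1 (10368 at 48 h and 1098 at 0 h).

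Membrane lipid and nitrogen genes gave further decreases. Sterol genes were lower in 9 of 23 cases (39.1%, against 13.3% over all protein-coding genes) and higher in 1. Among them, erg11, the target of azole drugs, averaged 5248 at 48 h and 18725 at 0 h. Fatty acid, phospholipid and storage lipid enzymes were lower in 9 of 27 cases (33.3%) and higher in 0. The lower ones included the fatty acid synthase subunit genes fas1 (8457 at 48 h and 23373 at 0 h) and fas2 (8934 at 48 h and 21558 at 0 h). The uracil catabolism genes urg1, urg2 and urg3 were lower, with urg1 at 40204 at 48 h and 117315 at 0 h. In WT at 0 h, urg1 averaged 8645. Of 9 thiamine genes, 2 were higher (22.2%) and 1 lower (11.1%), with a median of 0.20. The shares over all protein-coding genes were 12.4% and 13.3%. The biosynthesis gene nmt1, which thiamine represses, averaged 6994 at 48 h and 112 at 0 h in a starvation medium that contains thiamine. The nmt1 row lies opposite the noncoding RNA prl10. The other higher gene, bsu1, averaged 1132 at 48 h and 411 at 0 h, and the lower one, the thiamine-repressible acid phosphatase gene pho4, averaged 1154 at 48 h and 2960 at 0 h.

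In the next lists the shares are to be read against 12.4% higher and 13.3% lower over all protein-coding genes. Cell wall enzymes were lower in 7 of 22 cases and higher in 1 (median -0.81), with the glucan synthase gene bgs3 at 2163 at 48 h and 8386 at 0 h. Amino acid biosynthesis had 4 of 65 genes higher (6.15%) and 8 lower (12.3%), with a median of -0.03, so its share of lower genes was near that of all genes. Its extremes were the glutamate dehydrogenase gene gdh2 (8515 at 48 h and 2236 at 0 h) and the arginine synthesis gene arg7 (187 at 48 h and 729 at 0 h). Nitrogen and purine use had 2 of 17 higher and 5 lower, and RNA decay factors had 2 of 19 higher and 3 lower. Among the decay factors, the nonsense-mediated decay helicase gene upf1 averaged 956 at 48 h and 3550 at 0 h.

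Transporters of amino acids and peptides split, with 8 of 33 higher and 7 lower. This list was also added after its values were seen. The oligopeptide transporter genes opt3 (3456 at 48 h and 60.4 at 0 h) and isp4 (1773 at 48 h and 12598 at 0 h) went in opposite directions. The peptide transporter gene ptr2 averaged 525 at 48 h and 4948 at 0 h.

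Noncoding RNAs were led by hhf3-antisense-1 (3364 at 48 h and 33.1 at 0 h), SPNCRNA.1255 (3028 at 48 h and 34.0 at 0 h) and bst1-antisense-1 (1957 at 48 h and 22.6 at 0 h). The largest decrease was that of SPNCRNA.291 (20.5 at 48 h and 275 at 0 h). Among 516 measured noncoding RNAs that overlap a protein-coding gene on the opposite strand, 46.1% were higher. Among 115 without an overlapping gene of the tables on the opposite strand, 56.5% were higher. For 231 higher noncoding RNAs opposite a measured protein-coding gene, the median log2 ratio of the opposite gene was -0.10, and 40 of these genes were higher and 41 lower. For 204 such noncoding RNAs called in neither direction, the median of the opposite gene was 0.11, with 38 higher and 23 lower. For 61 lower ones it was 0.23, with 15 higher and 6 lower. Whether these sets differ was not tested.

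Higher genes also lay side by side. The longest run of adjacent measured protein-coding genes called higher held 8 genes on chromosome II, from ecl3 through pho84, pho1, fub2, nrg1, say1 and SPBPB2B2.05 to SPBPB2B2.06c, with a mean log2 ratio of 5.35 and a highest of 8.03. Another run on chromosome II held 7 genes from eno102 to SPBPB21E7.09 (1.92 to 6.49). On chromosome I, SPAC869.09, pcm2, mel1 and hry1 formed a run of 4 (4.69 to 8.86). The longest run of lower genes held 6, from sbp1 to SPBC1773.12 on chromosome II (-2.63 to -1.27). Shares of higher genes were similar among chromosomes I, II and III, at 12.9%, 11.4% and 13.3%.

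**Figure D5:**
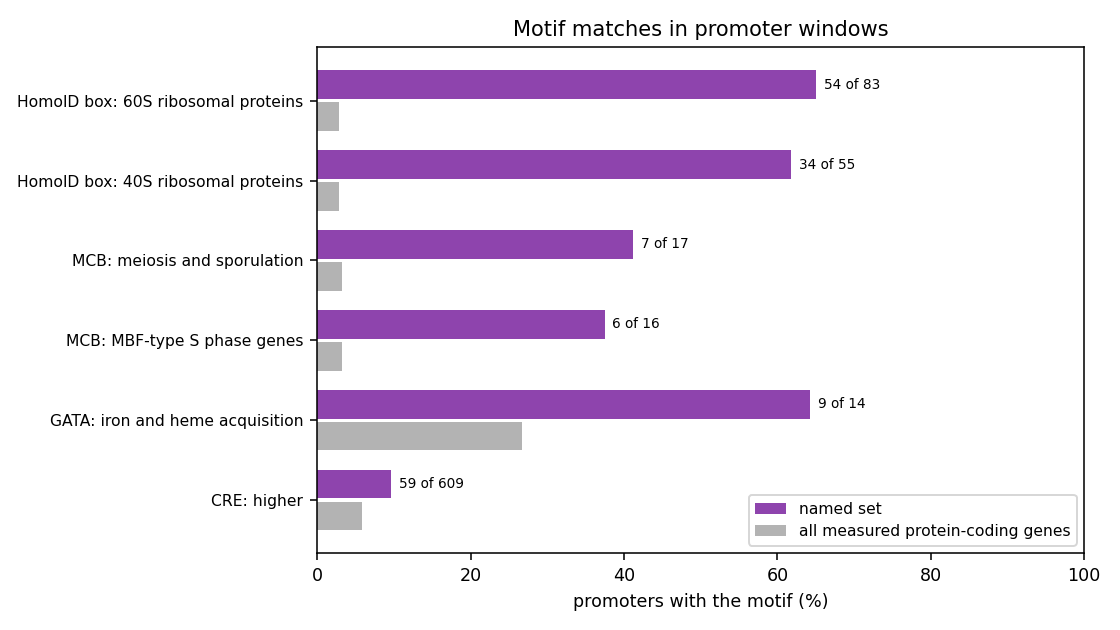
Share of promoter windows (250 bases before to 50 after the gene start) that hold a motif on either strand, for the set named on the left and for all measured protein-coding genes. The HomolD box was in 54 of 83 large-subunit ribosomal protein windows against 2.80% of all, while the CRE letters TGACGT were in 59 of 609 higher genes against 5.92% of all. Among genes that were 8-fold higher or more, the CRE letters were in 5 of 81 (6.17%), near the share of all.

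The rows that took the most normalized reads were not the same in both groups, on a scale without correction for length. SPCC1235.01, annotated as specific to Schizosaccharomyces, took 1.18% of the sum at 48 h (an average of 198436) against 0.176% at 0 h. It was followed by fba1, pdc101, pgk1 and gpd3. At 0 h, the first rows were pdc101, tdh1, ssa2 and urg1. SPCC1235.01 and ssa2 were picked after their values were seen. At the minimum of 100, the nearest measured genes were SPBC1271.07c-antisense-1, SPNCRNA.1110 and SPAC18G6.13-antisense-1, each at 101 in the higher group. The nearest genes left aside were hsp3105-antisense-1, crp79 and SPAC212.04c, at 99.8, 99.7 and 99.5.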

How the data were processed

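The study extracted total RNA from pho7Δ and WT cells, selected poly(A)+ RNA and made libraries with a strand-specific kit, which were sequenced as paired reads. Reads were aligned with HISAT2 2.1.0 to build ASM294v2 and counted per gene with HTSeq 0.10.0, with use of SAMtools. The authors divided the counts by DESeq2 size factors and deposited the mean of 3 libraries per group as a signal, an average normalized read count per gene. Read totals per library, and the precision they would give, were not analysed here. The 7 deposited tables also hold the authors' own comparison columns (fold changes, standard errors and p-values), which were not used. Libraries of a group are biological replicates according to the study, but only their averages were at hand, so the count test foreseen for counts per library could not be run.

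The 48 h and 0 h averages were joined on the systematic ID. Log2 ratios were taken without a pseudocount for genes with an average of at least 100 in the higher group, and called at 2-fold, with Python 3.11.15, pandas 2.3.3 and NumPy 2.4.6. The calling was tested on simulated data. Names came from the files, and 223 from RefSeq, in which 6833 IDs were found. Promoter windows of 250 bases before to 50 after the annotated gene start came from RefSeq (ASM294v3) and were searched on both strands. Genes were named by a rule. It takes in pho7, the marker genes, the 15 protein-coding genes with the largest increase and the 15 with the largest decrease, the 5 noncoding RNA genes at each end, all phosphate, ecl and Pho7-dependent factor genes, up to 5 members with the largest ratios of each other list with paired genes beside them, and the 3 genes on each side of the minimum. Genes named beyond this rule as examples of their list or as members of adjacent runs were chosen after their values were seen. Members and lists were chosen with earlier results of these data known, and 5 lists (Con-6 family, wtf elements, predicted detoxification enzymes, zinc, and uptake of amino acids and peptides) after their values were seen. Alternatives changed the scaling, the minimum, the pseudocount, the fold and the late time point.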

Additional observations from a re-analysis of the deposited data

How the results depend on the processing

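With a limit of 1.5-fold in place of 2-fold, 1557 genes were higher and 1552 lower, and with a limit of 4-fold 373 were higher and 74 lower. Under the other alternatives the counts stayed within 1.5 times those reported. Equal totals gave 1176 higher and 559 lower, so that 67.8% of calls were higher against 58.6% as reported, and of the named genes mam4, slp1, dis3 and ste6 were then no longer called. With the 36 h average in place of 48 h there were 1025 higher and 729 lower, of which 972 and 655 were also called at 48 h. No call changed direction. The medians of 49 gene lists moved little under the alternatives for lists, except that the Tf2 list had no gene left at a minimum of 200. A pseudocount of 10 moved 11 named genes by over 1.5-fold, spo6 to -4.93, dmc1 to -3.61, shu1 to 3.97 and hry1 to 8.16 among them. No paired analysis was possible because the tables analysed here hold group averages, and for the same reason leaving out a replicate and the replicate block were not run. Low averages limit the ratios of genes near 0 reads.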
